A study of Mus musculus with 2 samples.

Results

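The galectins Lgals1, Lgals3, Lgals8 and Lgals9 were followed across the microglia, other myeloid cells, neurons and glia of mouse retina in 2 single-cell libraries. These 4 genes of the 31053 in the count tables were taken by symbol, and they had been chosen from earlier levels measured in the same libraries, so their values are given as a description with no test. The OIR library came from pooled retinas of 6 wild-type C57BL/6 mice with oxygen-induced retinopathy, a model in which pups and a nursing mother were kept in 75% oxygen from postnatal day 7 to 12 and then returned to room air. The control library came from pooled retinas of 6 wild-type C57BL/6 mice that the labels give as control, and both groups were taken at postnatal day 17. Cells were dissociated with papain and selected with magnetic beads against CD11b, a surface protein of myeloid cells, before droplet sequencing.

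Galectins are soluble proteins that bind galactose-bearing sugar chains, both on the outside of cells and on damaged membranes inside them. Galectin-1 (Lgals1) pairs with itself and cross-links glycoproteins, galectin-3 (Lgals3) adds a self-assembling tail to a single sugar-binding domain, and galectin-8 (Lgals8) and galectin-9 (Lgals9) each join a pair of such domains in 1 chain. In myeloid cells galectin-3 is known as a marker of phagocytic and disease-associated microglia. Galectin-8 is known as a sensor of broken vesicles in autophagy, and galectin-9 as a ligand of the receptor Tim-3 (Havcr2).

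The OIR library held 7283 barcodes and 49773742 UMIs (tags that count RNA molecules once each), and the control library 10826 barcodes and 50081145 UMIs. After filtering, 6132 OIR and 8585 control cells were used, with a median of 2828.5 UMIs per OIR cell and 1648 per control cell. The libraries shared 89 barcodes, 30 of them among the cells used of both. Although the labels call the cells retinal microglia, rod-like cells made up 57.8% of OIR cells and 77.3% of control cells. Microglia-like cells were 437 in OIR and 833 in control, and all 16 microglia markers were detected in them in both libraries. They fell into a cluster led by Selplg, P2ry12 and Tmem119, genes of resting microglia, with 139 OIR and 673 control cells. The other cluster was led by Ftl1, Hmox1, Tyrobp and Aif1, with 298 OIR and 160 control cells. Hmox1 encodes the haem-degrading enzyme heme oxygenase 1. None of the 16 microglia markers was among the top 10 genes of the Hmox1-led cluster, and its median depth was 2207.5 UMIs in OIR and 1789 in control, against 8028 in OIR and 7628 in control for the Tmem119-led cluster. A further myeloid cluster of 257 OIR and 44 control cells mixed markers of several types and took no name. A finer clustering, used after these data were seen, split it into a Spp1- and Mmp12-led part (206 OIR, 21 control cells), a monocyte-like part (32 OIR, 12 control) and a neutrophil-like part (19 OIR, 11 control). There was 1 library per group, so levels are given as CPM (the class's UMIs of a gene scaled to 1000000 UMIs) with 95% intervals that cover counting error only, and "higher" or "lower" means that the counting interval of the log2 ratio, OIR over control, excluded 0.

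The promoters of Lgals3 and Lgals9 are shown, because in microglia-like cells Lgals3 differed widely between the 2 libraries and Lgals9 differed by less than its counting interval. No promoter window of Lgals1 was available, so Lgals1 was not searched. Lgals3 lies at chr14:47367751-47386160 on the plus strand and Lgals9 at chr11:78962974-78984946 on the minus strand. Lgals1 lies at chr15:78926725-78930465 on the plus strand and Lgals8 at chr13:12439415-12464944 on the minus strand. All 4 are protein-coding genes of build GRCm38. The sequences are RefSeq windows of build GRCm38.p6, from 250 bases before to 50 bases after the annotated start, printed 5′ to 3′ on the gene's strand. The RefSeq start of Lgals3 lies inside the longer gene span given above. The Lgals3 window is chr14:47373610-47373909 and capitals mark GC boxes. The Lgals9 window is chr11:78984875-78985174 and capitals mark matches to the interferon-stimulated response element.
Lgals3: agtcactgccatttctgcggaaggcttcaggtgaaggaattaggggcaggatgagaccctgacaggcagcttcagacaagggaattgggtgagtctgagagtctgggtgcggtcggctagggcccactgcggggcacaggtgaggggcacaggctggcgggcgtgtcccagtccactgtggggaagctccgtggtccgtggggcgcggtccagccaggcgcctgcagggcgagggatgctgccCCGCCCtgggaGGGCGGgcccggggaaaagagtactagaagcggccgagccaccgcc
Lgals9: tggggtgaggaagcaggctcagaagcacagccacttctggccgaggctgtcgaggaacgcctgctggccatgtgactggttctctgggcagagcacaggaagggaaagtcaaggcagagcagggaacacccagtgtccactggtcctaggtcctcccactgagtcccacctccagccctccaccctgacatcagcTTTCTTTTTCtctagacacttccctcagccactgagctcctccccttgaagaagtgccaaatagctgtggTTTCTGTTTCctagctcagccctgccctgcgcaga

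The letters were searched on both strands in 32851 promoter windows of the same length. The GC box GGGCGG, a site bound by Sp-family factors, matched the Lgals3 window at 2 places, with first bases 7 bases before and 4 bases after the start, and it occurred in 35.7% of all windows. The interferon-stimulated response element GAAANNGAAA matched the Lgals9 window at 2 places, with first bases 55 bases before and 15 bases after the start, and it occurred in 3.44% of all windows. Neither of those matched the Lgals8 window. The hypoxia element core ACGTG (19.6% of windows), the AP-1 site TGANTCA (7.81%), the antioxidant element TGACNNNGC (12.4%) and the TATA box TATAAA (13.6%) had no match in the windows of Lgals3, Lgals8 or Lgals9. Such matches describe letters only. GC content was 67.0% in the Lgals3 window, above 85.6% of windows, and 58.0% in the Lgals9 window, above 65.4%.

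Lgals3 stood far higher in OIR microglia-like cells, and most of its OIR UMIs lay in a small but deep Spp1- and Mmp12-led group of myeloid cells. In microglia-like cells Lgals3 was at 652 CPM in OIR (619 to 687, 1426 UMIs), against 14.3 CPM in control (11.5 to 17.5, 94 UMIs). The log2 ratio was 5.51 (5.21 to 5.83), the 8th highest among 6089 genes that reached 20 CPM in either library. In the Tmem119-led cluster it was at 137 CPM in OIR and 13.8 CPM in control, a log2 ratio of 3.32 (2.94 to 3.71). In the Hmox1-led cluster it was at 1412 CPM in OIR and 23.5 CPM in control, a log2 ratio of 5.91 (4.92 to 7.12). The pooled ratio therefore also carries the different mix of the clusters, since the Hmox1-led cluster held 298 of 437 OIR microglia-like cells and 160 of 833 control ones.

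The Spp1- and Mmp12-led part, named for osteopontin and macrophage elastase, held 6202 of the 8924 Lgals3 UMIs of the OIR library, 69.5%, in 206 cells. That share also carries depth. The OIR cells of this part had a median of 16408 UMIs and 4162400 UMIs in total. Those of the Hmox1-led cluster had a median of 2207.5 and 883440 in total. There Lgals3 was at 1490 CPM in OIR (1453 to 1528) and 271 CPM in control (203 to 354, 53 UMIs in 21 cells), a log2 ratio of 2.46 (2.07 to 2.88). The OIR levels of this part and of the Hmox1-led cluster had overlapping intervals and were the top of the order. In the control library the highest level was in the monocyte-like part, at 810 CPM, followed by the Spp1- and Mmp12-led part and the neutrophil-like part, whose intervals overlapped. Monocyte-like cells had 1188 CPM in OIR and 810 CPM in control, a log2 ratio of 0.55 (0.23 to 0.88), the smallest called difference of Lgals3 among the myeloid groups. These 32 OIR and 12 control cells were led by Plac8, H2-Aa, Cd74, S100a4 and H2-Eb1. They also held microglial RNA, with P2ry12 at 248 CPM in OIR and 586 CPM in control. Sall1 was at 11.8 and 96.3 CPM and C1qa at 2567 and 2928 CPM. The part of this RNA in their galectin ratios was not tested. The neutrophil-like part had 842 CPM in OIR and 196 CPM in control, a log2 ratio of 2.11 (1.49 to 2.79), in 19 and 11 cells. Beside the neutrophil gene S100a8, at 9493 CPM in OIR and 7781 CPM in control, it carried microglial RNA: P2ry12 was at 366 CPM in OIR and 1531 CPM in control, Sall1 at 87.4 and 323 CPM, and C1qa at 4661 and 5595 CPM. Transcripts of the other OIR groups were in it too, with Hmox1 at 5545 CPM in OIR and 85.04 CPM in control, and Spp1 at 842 CPM in OIR and 0 UMIs in control. The share of these transcripts in its galectin levels was not tested, so the levels are those of the cluster and not of neutrophils alone. Border macrophage-like cells, marked by Pf4 and Mrc1, had 95.8 CPM in OIR and 39.2 CPM in control, where there was 1 UMI, and the interval of the log2 ratio, -1.22 to 6.61, included 0. Among the OIR myeloid groups, border macrophage-like cells thus had the lowest Lgals3 level, and their interval (77.0 to 118) ended just below that of the Tmem119-led cluster (118 to 159).

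**Figure D1:**
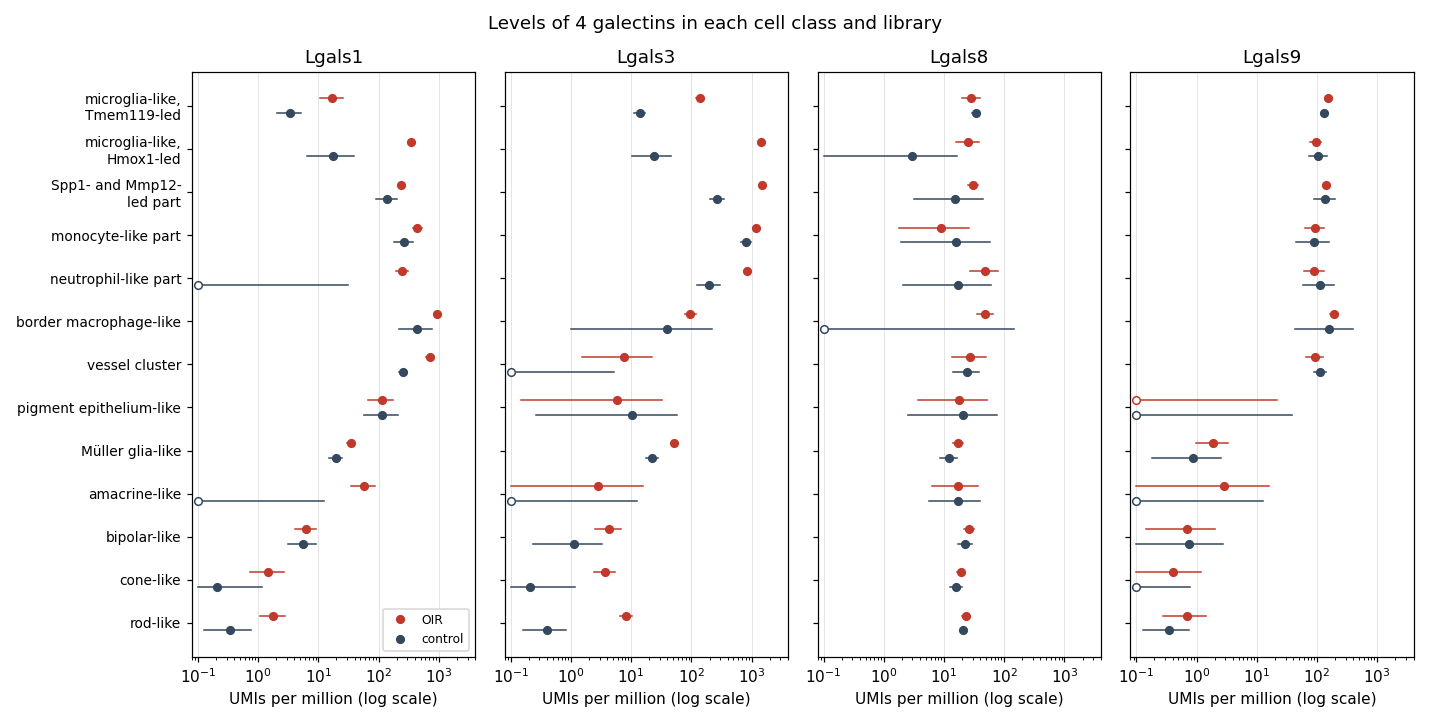
CPM (log axis) of each galectin in 13 cell groups, OIR above control in each row, with lines for the 95% counting interval and open points at the left edge for 0 UMIs. Lgals1 and Lgals3 are spread over orders of magnitude between groups, Lgals8 lies at 48.6 CPM or less in all of them, and Lgals9 separates myeloid and vessel groups at 88.2 to 192 CPM from neurons and Müller glia-like cells below 3 CPM.

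The difference was also seen in the share of cells with a UMI at a single depth. With cells thinned to 1500 UMIs and shallower ones left out (82 OIR, 58 control), 32.1% of 355 OIR microglia-like cells had a Lgals3 UMI (27.3 to 37.2), against 1.03% of 775 control ones (0.447 to 2.02). Unthinned, the shares were 46.0% in OIR and 2.64% in control. Thinned shares were 45.2% in OIR and 1.82% in control for the Hmox1-led cluster, 55.1% and 9.52% for the Spp1- and Mmp12-led part, and 11.0% and 0.902% for the Tmem119-led cluster. The control UMIs of the Tmem119-led cluster were gathered in few cells, with 86 UMIs in 19 of 673 cells. In the Hmox1-led cluster the levels of single OIR cells ran from 0 through a median of 282 CPM to 26363 CPM, with 140 of 298 cells at 0, and 157 of 160 control cells were at 0. Rod-like cells, which should lack the gene, had a thinned share of 1.26% in OIR and 0 of 2925 cells in control.

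Markers of other cell types differed between the libraries in the same groups. Summed CPM of the 7 erythroid markers, haemoglobin genes among them, was 2582 in OIR and 8.82 in control in the Hmox1-led cluster, 6264 and 10.2 in the Spp1- and Mmp12-led part, and 144 and 5.13 in the Tmem119-led cluster. It was also 230 in OIR and 11.2 in control in rod-like cells. Hmox1 itself was at 3621 CPM in OIR and 82.3 CPM in control in the Hmox1-led cluster. The 8 monocyte markers summed to 17.0 CPM in OIR (4 detected) and 5.88 CPM in control (1 detected) in the Hmox1-led cluster, with Ccr2 at 0 in both. They summed to 96.7 CPM in OIR (3 detected) and 107 CPM in control (4 detected) in the Tmem119-led cluster. In the Spp1- and Mmp12-led part they summed to 66.5 CPM in OIR (6 detected) and 184 CPM in control (3 detected). The 10 border macrophage markers summed to 228 CPM in OIR (7 detected) and 58.8 CPM in control (2 detected) in the Hmox1-led cluster, to 179 CPM in OIR (5 detected) and 89.3 CPM in control (6 detected) in the Tmem119-led cluster, and to 487 CPM in OIR (9 detected) and 1144 CPM in control (5 detected) in the Spp1- and Mmp12-led part. In the Hmox1-led cluster mitochondrial genes took 3.60% of UMIs in OIR and 5.47% in control, and ribosomal protein genes 21.4% in OIR and 27.7% in control. The part of these transcripts in the Lgals3 difference was not tested.

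**Figure D2:**
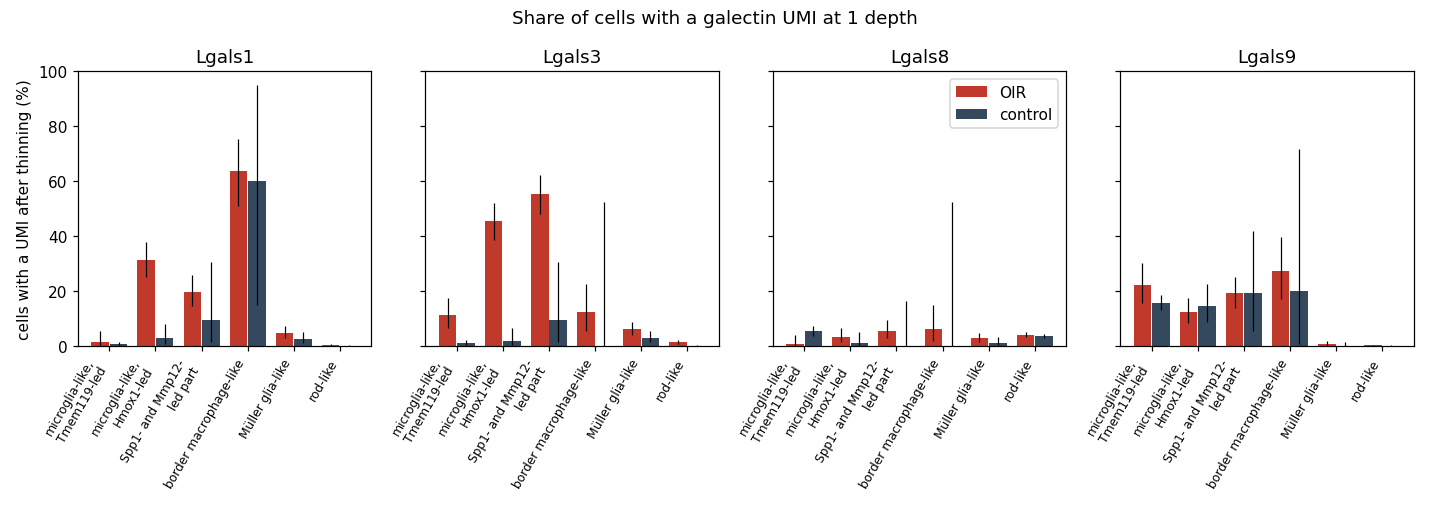
Percent of cells with at least 1 UMI of each galectin after thinning to 1500 UMIs, OIR bars left of control bars, with 95% Clopper-Pearson intervals. Lgals3 reaches 55.1% in the OIR Spp1- and Mmp12-led part and 45.2% in the OIR Hmox1-led cluster, and Lgals9 overlaps between the libraries in every group shown.

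Lgals1 was also far higher in OIR microglia-like cells, but its highest levels lay in other cells. Microglia-like cells had 148 CPM in OIR (133 to 165, 324 UMIs), against 4.10 CPM in control (2.70 to 5.97, 27 UMIs). The log2 ratio was 5.17 (4.61 to 5.80), the 10th highest of the 6089. In the Hmox1-led cluster Lgals1 was at 342 CPM in OIR and 17.6 CPM in control, where 3 cells held 6 UMIs, with a log2 ratio of 4.28 (3.14 to 5.73). In the Tmem119-led cluster it was at 16.9 CPM in OIR and 3.37 CPM in control, a log2 ratio of 2.33 (1.40 to 3.26). Thinned shares of microglia-like cells with a UMI were 19.7% in OIR (15.7 to 24.2) and 0.903% in control (0.364 to 1.85), and unthinned 28.8% and 2.28%.

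Border macrophage-like cells led the order of Lgals1 in both libraries, at 950 CPM in OIR (888 to 1014, 78 cells) and 431 CPM in control (215 to 771, 5 cells), with a log2 ratio of 1.14 (0.29 to 2.15). In control their interval overlapped that of the next group, the monocyte-like part. Border macrophage-like cells held 28.7% of all OIR Lgals1 UMIs and the Spp1- and Mmp12-led part 32.0%, while the vessel cluster held 45.9% of the control ones. The vessel cluster, led by the endothelial gene Cldn5 and the pericyte gene Rgs5, came next in OIR at 702 CPM in 15 cells, against 253 CPM in 48 control cells, a log2 ratio of 1.47 (1.19 to 1.75). Its marker sums differed between the libraries. The 8 endothelial markers summed to 4718 CPM in OIR and 9731 CPM in control, and the 8 pericyte markers to 5576 and 6207 CPM, and the part of this in the difference was not tested. The Lgals1 UMIs of the vessel cluster came from 13 of 15 OIR cells and 10 of 48 control cells. Monocyte-like cells, with the microglial RNA given above, had 442 CPM in OIR and 265 CPM in control (0.74, 0.19 to 1.33). The Spp1- and Mmp12-led part had 239 CPM in OIR and 138 CPM in control (0.80, 0.25 to 1.40). Pigment epithelium-like cells had 113 CPM in OIR and 115 CPM in control, with an interval of the log2 ratio from -1.18 to 1.18. The neutrophil-like part, with the microglial and Hmox1-led transcripts given above, had 243 CPM in OIR, from 75 UMIs, against 0 UMIs in 11 control cells. With the control count set to a floor of 3 UMIs the fold was 9.52, and the interval of the log2 ratio began at 2.92. Amacrine-like cells had 20 UMIs in 5 of 35 OIR cells and 0 UMIs in 79 control cells. On the same floor the fold was 5.56, and the interval of the log2 ratio began at 2.04.

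Lgals1 and Lgals3 UMIs were counted in the same thinned cells. Of 355 thinned OIR microglia-like cells, 36 had a UMI of both, 34 of Lgals1 alone, 78 of Lgals3 alone and 207 of neither. The count with both was above the 22.5 that independent genes would give, and in the Hmox1-led cluster, which held all 36, it stood beside 30.7. In all 677 OIR myeloid cells 83 had both, beside 66.2. At 1500 UMIs per cell, a gene counted as alone means only that the other had 0 UMIs. Of 775 control cells, 1 had both, 6 Lgals1 alone and 7 Lgals3 alone. Among 66 thinned OIR border macrophage-like cells, 37 had Lgals1 alone, 3 Lgals3 alone and 5 both. Among 32 OIR monocyte-like cells 0 had Lgals1 alone, 14 Lgals3 alone and 11 both. Lgals1 without Lgals3 was thus the usual state of border macrophage-like cells with a UMI of either gene, and was not seen in monocyte-like cells at this depth.

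As a background over all genes, 5.27% of the 6089 genes measured in microglia-like cells stood at least 2-fold higher in OIR with an interval that excluded 0, and 5.34% stood at least 2-fold lower. Of the 4 members, Lgals1 and Lgals3 met the first rule and Lgals8 and Lgals9 neither. Since the members were chosen on this contrast, nothing is read from that count. The median log2 ratio of all measured genes was -0.14, and scaling by the median of ratios put Lgals3 at 5.63 and Lgals1 at 5.29.

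**Figure D3:**
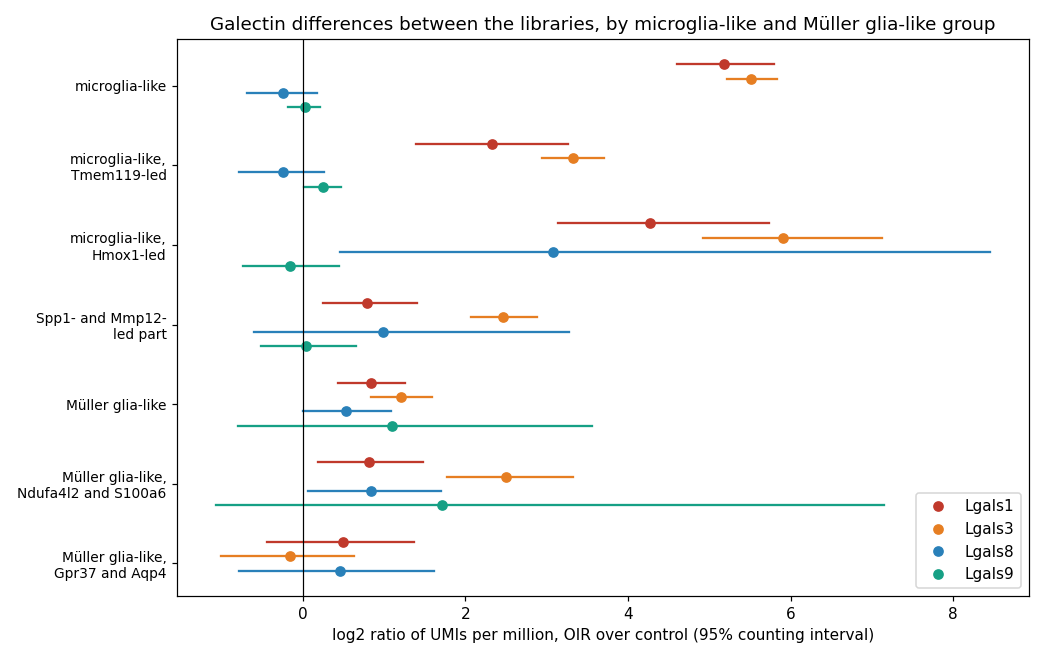
Log2 ratios of CPM, OIR over control, with 95% counting intervals for the 4 galectins in microglia-like and Müller glia-like cells and their clusters or parts, given only where both libraries allow a ratio. Lgals1 and Lgals3 lie above 2 in both microglia-like clusters, and Lgals3 lies at 2.50 in 1 Müller glia-like part and at -0.15 in the other.

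Müller glia, the radial support cells of the retina, had the next level of Lgals3 after the myeloid groups in OIR. Their interval overlapped that of the next group, erythroid-like cells (15.3 to 78.3 CPM, 7 UMIs). In Müller glia-like cells Lgals3 was at 50.8 CPM in OIR (45.4 to 56.6, 324 UMIs) and 22.0 CPM in control (17.3 to 27.6, 75 UMIs), a log2 ratio of 1.20 (0.84 to 1.59). Lgals1 was at 34.6 CPM in OIR and 19.4 CPM in control, a log2 ratio of 0.84 (0.43 to 1.26). Thinned shares were 5.98% in OIR and 2.77% in control for Lgals3, and 4.78% and 2.42% for Lgals1. Of 6762 measured genes in this class 2.66% stood at least 2-fold higher in OIR and 3.40% at least 2-fold lower, and 1 of the 4 members, Lgals3, met the first rule.

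Within the class, the Lgals3 ratios of its main parts had intervals that did not overlap, a difference that was not tested. In cells led by Ndufa4l2, S100a6 and Gfap, the filament gene that Müller glia switch on in injury, there were 390 OIR and 119 control cells. Gfap, which helped to define this part, was at 164 CPM in OIR and 1.85 CPM in control. Lgals3 there was at 55.8 CPM in OIR and 9.85 CPM in control, a log2 ratio of 2.50 (1.78 to 3.33). In cells led by Gpr37 and Aqp4, the water channel of Müller glia, there were 51 OIR and 187 control cells. There Lgals3 was at 30.4 CPM in OIR (18 UMIs) and 33.9 CPM in control (58 UMIs), a log2 ratio of -0.15 (-1.004 to 0.63). Lgals1 had a log2 ratio of 0.81 (0.19 to 1.48) in the first part and 0.49 (-0.44 to 1.37) in the second. The other 19 OIR and 5 control cells, nearly all from a cluster led by Crhbp and Optc, held 57 OIR and 6 control Lgals1 UMIs, and 2 OIR and 1 control Lgals3 UMIs. At clustering resolution 2, where the name Müller glia-like went to 69 OIR and 192 control cells without the Ndufa4l2-led part, the log2 ratio of Lgals3 was -0.69 (-1.52 to 0.07) and that of Lgals1 1.79 (1.23 to 2.38). Rod markers took 3.58% of UMIs in OIR and 5.50% in control in the Ndufa4l2-led part, and 1.46% in OIR and 0.648% in control in the Gpr37-led part.

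Free RNA from broken cells enters droplets, and a gene that comes with such RNA keeps its ratio to the other genes of its source. For this comparison, UMIs of each galectin were divided by UMIs of 5 abundant myeloid genes (C1qa, C1qb, C1qc, Ctss and Tyrobp) in the same cells. All myeloid cells together had 41.8 Lgals3 UMIs per 1000 such UMIs in OIR and 1.28 in control. Rod-like cells had 68.2 in OIR and 6.51 in control, cone-like cells 66.0 in OIR and 5.29 in control, and bipolar-like cells 44.7 in OIR and 15.6 in control. The OIR values of single myeloid groups were spread widely. They were 4.32 in the Tmem119-led cluster, 4.78 in border macrophage-like cells and 41.2 in the neutrophil-like part. The Spp1- and Mmp12-led part had 56.4, the Hmox1-led cluster 62.8 and the monocyte-like part 94.3. The control values of neurons, which rest on 7, 1 and 3 UMIs, were above that of all control myeloid cells. The part of free RNA in the neuronal UMIs was not tested. Rod-like cells had 84 Lgals3 UMIs in 3544 OIR cells (8.34 CPM) and 7 UMIs in 6632 control cells (0.403 CPM), so the log2 ratio there, 4.37, rests on that level. Müller glia-like cells were apart, with 777 in OIR and 487 in control for Lgals3, and 530.0 in OIR and 429 in control for Lgals1, against 12.2 and 0.462 for Lgals1 in all myeloid cells. Its parts ran opposite ways for Lgals3, with 1097 in OIR and 180 in control in the Ndufa4l2-led part, and 142 in OIR and 921 in control in the Gpr37-led part. For Lgals1 they did so too, with 531 in OIR and 281 in control, and 134 in OIR and 556 in control. For Lgals1 this held for the quotient only. By CPM its log2 ratios were 0.81 and 0.49, the latter with an interval that included 0. In the Gpr37-led part the 5 myeloid genes of the divisor took 0.0215% of UMIs in OIR and 0.00368% in control. The remaining Müller glia-like cells held 57 of the 221 OIR Lgals1 UMIs of the class, beside 13 UMIs of the 5 myeloid genes. Single myeloid transcripts also differed between the libraries there, with C1qa at 50.7 CPM in OIR and 8.17 CPM in control. Hmox1 was at 173 CPM in OIR and 1.75 CPM in control. The part of myeloid RNA in the Lgals3 ratio of -0.15 and the Lgals1 ratio of 0.49 of the Gpr37-led part was not tested.

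**Figure D4:**
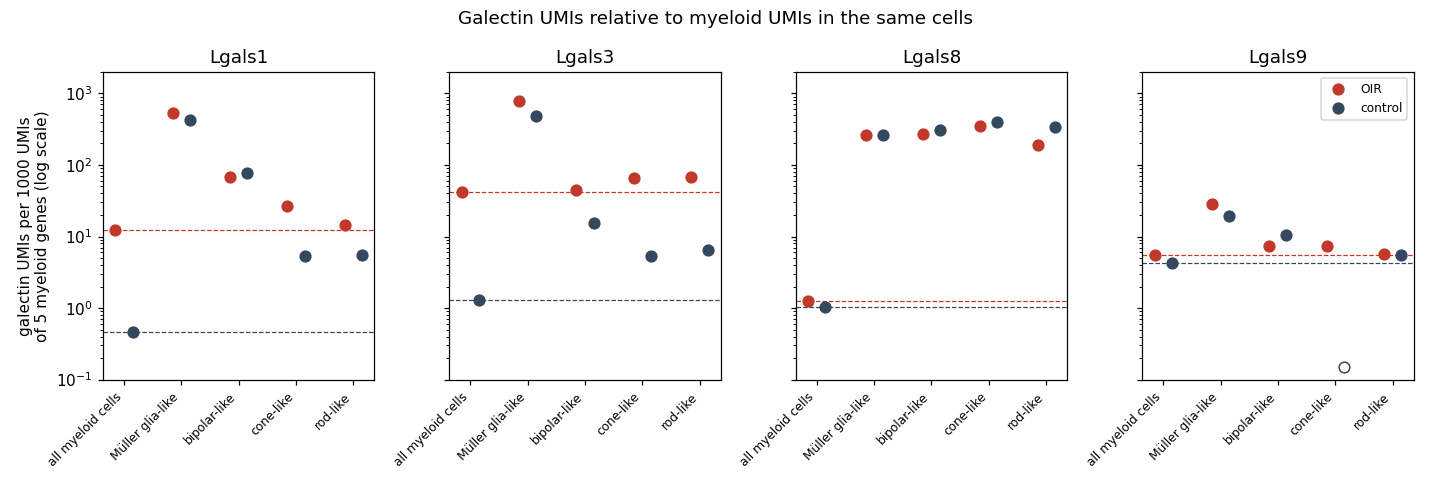
Galectin UMIs per 1000 UMIs of 5 myeloid genes in the same cells (log axis), OIR points left of control points, with dashed lines at the value of all myeloid cells of the library and an open point for 0 UMIs. OIR Lgals3 in bipolar-like, cone-like and rod-like cells lies near the dashed OIR line, while Lgals3 and Lgals1 in Müller glia-like cells and Lgals8 in all 4 non-myeloid classes lie far above their lines.

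Lgals9 was found mainly in myeloid cells and the vessel cluster, and in microglia-like cells its difference between the libraries was within its counting interval. In microglia-like cells it was at 130 CPM in OIR (116 to 146, 285 UMIs) and 128 CPM in control (120 to 137, 845 UMIs), a log2 ratio of 0.02 (-0.18 to 0.22). Differences inside that interval were not detectable at this depth. In the Tmem119-led cluster it was at 154 CPM in OIR and 130 CPM in control, a log2 ratio of 0.25 (0.02 to 0.48). In the Hmox1-led cluster it was at 95.1 CPM in OIR and 106 CPM in control (-0.15, -0.73 to 0.45). The Spp1- and Mmp12-led part had 142 CPM in OIR and 138 CPM in control (0.04, -0.52 to 0.65). The thinned share of microglia-like cells with a UMI was 16.1% in OIR (12.4 to 20.3) and 15.4% in control (12.9 to 18.1), and the unthinned shares were 36.2% in OIR and 51.5% in control, at median depths of 3168 and 6574 UMIs. Thinned to 2500 UMIs, the shares were 22.6% in OIR (17.6 to 28.2) and 25.5% in control (22.3 to 28.9), so their order turned, with overlapping intervals at both depths.

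The order of Lgals9 was led by border macrophage-like cells in both libraries, at 192 CPM in OIR and 157 CPM in control, with intervals that overlapped the next group's. In OIR the Hmox1-led cluster, the vessel cluster (92.1 CPM), the monocyte-like part (91.3 CPM) and the neutrophil-like part (90.7 CPM) did not differ beyond their intervals. The vessel cluster had 112 CPM in control, and its cells held 37 Lgals9 UMIs beside 9 UMIs of the 5 myeloid genes in OIR, and 79 Lgals9 UMIs beside 395 in control. Rod-like cells had 0.695 CPM in OIR and 0.346 CPM in control, which were 5.69 and 5.58 per 1000 myeloid UMIs, against 5.55 and 4.24 in all myeloid cells. Müller glia-like cells had 12 UMIs in OIR and 3 in control, and pigment epithelium-like cells 0 in both.

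Lgals8 was low in every group, at 48.6 CPM or less, and its levels still differed between classes. Microglia-like cells had 27.0 CPM in OIR (20.5 to 34.8, 59 UMIs) and 32.1 CPM in control (27.9 to 36.7, 211 UMIs), a log2 ratio of -0.25 (-0.69 to 0.17). Rod-like cells had 23.0 CPM in OIR and 20.7 CPM in control (0.15, -0.09 to 0.39), bipolar-like cells 25.8 CPM in OIR and 22.5 CPM in control (0.20, -0.27 to 0.68), and cone-like cells 19.3 CPM in OIR and 15.8 CPM in control (0.29, -0.12 to 0.71). In Müller glia-like cells the interval just excluded 0, at 17.4 CPM in OIR and 12.04 CPM in control (0.53, 0.002 to 1.08). Border macrophage-like cells had 45 UMIs in OIR (47.9 CPM) and 0 in 5 control cells. In the order of levels all neighbours had overlapping intervals in both libraries, but groups further apart did not. In OIR border macrophage-like cells (34.9 to 64.1) lay above Müller glia-like cells (14.3 to 20.9). In control the Tmem119-led cluster, at 33.7 CPM (29.3 to 38.5), lay above rod-like (18.6 to 23.0), cone-like (12.4 to 19.7) and Müller glia-like cells (8.64 to 16.3). In rod-like cells Lgals8 reached 188 UMIs per 1000 myeloid UMIs in OIR and 335 in control, against 1.24 and 1.03 in all myeloid cells. The part of free RNA in its neuronal UMIs was not tested. The Hmox1-led cluster had 22 UMIs in OIR and 1 in control (3.08, 0.45 to 8.45), a ratio that rests on that single UMI.

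In the neurons the background of genes at least 2-fold apart was small. In rod-like cells 1.28% of 6566 measured genes stood at least 2-fold higher in OIR and 0.183% at least 2-fold lower, in cone-like cells 0.737% and 0.261% of 6510, and in bipolar-like cells 1.41% and 0.850% of 7175. Lgals8 was the member above 20 CPM in rod-like and bipolar-like cells, and it met neither rule. Lgals1, Lgals3 and Lgals9 did not reach 20 CPM in rod-like, cone-like or bipolar-like cells. Bipolar-like cells had 27 Lgals1 UMIs in OIR (6.32 CPM) and 15 in control (5.62 CPM), at 67.0 and 78.1 per 1000 myeloid UMIs, above the ratio of myeloid cells in both libraries.

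Of the other galectin genes, the galectin-related gene Lgalsl, whose product has lost the usual sugar binding, was the one with the most UMIs in both libraries. Lgalsl was at 524 CPM in OIR and 417 CPM in control in rod-like cells (0.33, 0.28 to 0.38), and at 627 CPM in OIR and 523 CPM in control in cone-like cells (0.26, 0.19 to 0.33). In Müller glia-like cells it was at 321 CPM in OIR and 208 CPM in control (0.62, 0.50 to 0.75), and in bipolar-like cells at 157 CPM in OIR and 161 CPM in control (-0.03, -0.21 to 0.14). In microglia-like cells it was at 41.2 CPM in OIR and 16.4 CPM in control, a log2 ratio of 1.33 (0.91 to 1.74), while rod genes took 0.465% of their UMIs in OIR and 0.231% in control, and the part of rod RNA in that ratio was not tested. Lgals4 had 74 UMIs in OIR (7.35 CPM) and 60 in control (3.46 CPM) in rod-like cells (1.09, 0.58 to 1.60). Lgals2, Lgals7, Lgals12 and Grifin had 12, 1, 18 and 14 UMIs in all OIR cells and 8, 0, 13 and 12 in all control cells.

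Lists of galectin partners were read beside the members in microglia-like cells. Their ratios pool the Tmem119-led and Hmox1-led clusters, and so also carry the different mix of the clusters. The Hmox1-led cluster gave 883440 of 2185859 UMIs in OIR and 340056 of 6579310 in control. The part of this mix in the list ratios was not tested. List genes were counted as apart at 1.5-fold with an interval excluding 0, a rule that 711 of all 6089 measured genes met as higher and 1213 as lower, with a median log2 ratio of -0.14. Of 13 measured binding partners and receptors 1 was higher and 2 were lower, with a median of -0.25. Bsg (basigin) was at 651 CPM in OIR and 422 CPM in control (0.63), Itgav (integrin alpha-V) at 30.2 CPM in OIR and 60.8 CPM in control (-1.01), and Nrp1 (neuropilin-1) at 50.3 CPM in OIR and 83.4 CPM in control (-0.73). Trem2, Havcr2 and Lgals3bp are named for their known link to galectins, after their values were seen. Trem2, a microglial lipid receptor, was at 1843 CPM in OIR and 2223 CPM in control (-0.27), and Havcr2, the galectin-9 receptor Tim-3, at 79.1 CPM in OIR and 94.2 CPM in control (-0.25). Lgals3bp, a secreted glycoprotein bound by galectin-3, was at 124 CPM in OIR and 119 CPM in control (0.05, -0.15 to 0.25), a difference within its counting interval.

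The next 2 lists were pooled over the clusters in the same way. Of 14 measured genes of the damaged-lysosome response and nutrient sensing, 2 were higher and 2 lower, with a median of 0.03. The higher ones were the autophagy receptors Sqstm1, at 151 CPM in OIR and 82.5 CPM in control (0.87), and Tax1bp1, at 231 CPM in OIR and 151 CPM in control (0.61). The lower ones were Tfeb, at 12.8 CPM in OIR and 23.6 CPM in control (-0.88), and Tfe3, at 130 CPM in OIR and 200 CPM in control (-0.61), which both encode transcription factors of lysosome genes. Of 10 measured glycosyltransferases that build or cap galectin ligands none was higher and 4 were lower, with a median of -0.53, against 19.9% lower among all measured genes. They were Mgat4a, at 75.9 CPM in OIR and 157 CPM in control (-1.05), Gcnt2, at 29.7 CPM in OIR and 60.04 CPM in control (-1.01), St3gal6, at 130 CPM in OIR and 250 CPM in control (-0.94), and Mgat1, at 49.4 CPM in OIR and 75.7 CPM in control (-0.62). Mgat1 starts the branching of N-glycans and Mgat4a adds a branch. Gcnt2 branches poly-N-acetyllactosamine, the preferred galectin ligand, and St3gal6 caps galactose with sialic acid.

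**Figure D5:**
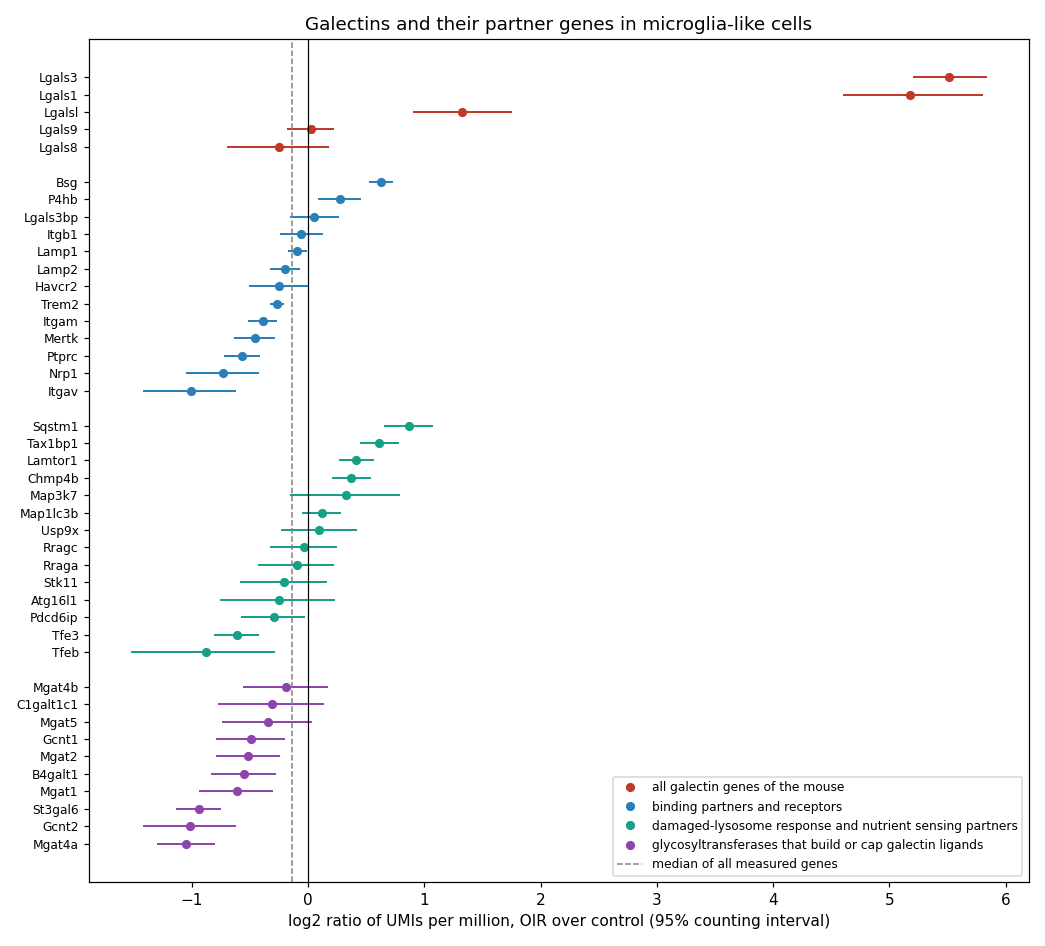
Log2 ratio of CPM in microglia-like cells, OIR over control, with 95% counting intervals, for every measured gene of the 4 lists, and a dashed line at the median of all measured genes, -0.14. Lgals3 and Lgals1 lie above 5, and the other list members lie between -1.05 and 1.33.

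The genes most like each galectin were sought among 9483 genes over 17 combinations of class and library with at least 50 cells, by Pearson correlation of log2(CPM + 1). The points share libraries and depth, and the values are a description with no p. Lgals3 was most like Apoc1 (r = 0.952), Gsn (0.934), Prdx1 (0.927), Capg (0.927) and Eif4ebp1 (0.926). Lgals1 was most like Sin3b (0.944), H2afj (0.940), Cela1 (0.933), Cstb (0.929) and Serpinb6a (0.927). Lgals9 was most like Rab32 (0.996), Adgre1 (0.995), Cd86 (0.994), Rapsn (0.994) and Ncf4 (0.994). Adgre1 encodes the macrophage antigen F4/80 and Cd86 a costimulatory protein of myeloid cells. Lgals8 was most like Coro7 (0.906), Topbp1 (0.902), Rae1 (0.894), Tcof1 (0.893) and Nus1 (0.876). Among the members, Lgals1 and Lgals3 had r = 0.871, Lgals3 and Lgals9 0.781, Lgals1 and Lgals9 0.700, and Lgals8 0.226 to 0.272 with each of the others.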

How the data were processed

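Raw UMI counts per gene and barcode, deposited by the authors, were made with Cell Ranger 3.0.2 on build mm10, per the submitters' processing notes. No source here states how cell barcodes were called. Gene identifiers were matched to GENCODE (30934 of 31053 found).

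The cell filter asked for 500 genes or more and allowed 10% mitochondrial UMIs. Scrublet marked 0 OIR barcodes and 1 control barcode by itself, so the top scores were removed at 0.8% per 1000 barcodes (424 OIR, 938 control). Cells of both libraries were clustered together without integration in scanpy 1.11.5 (2000 variable genes without galectins, 30 components, 20 neighbours, Leiden resolution 1). A cluster was named when its class markers led by a mean log2 of at least 0.5, at least 3 were detected in 10% of cells, and no second class was within 0.5, a margin set after the data were seen. Unnamed cells were 7.11% of OIR and 1.71% of control cells. The splits of the mixed myeloid cluster and of the Müller glia-like cells came from resolution 2 and were also chosen after seeing the data.

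Counts were summed per class and library and scaled to CPM here. Intervals at 95% are exact Poisson for CPM, exact conditional binomial for ratios and exact Clopper-Pearson for shares, and they cover counting error only. No test was made, because each group has 1 library of 6 pooled mice and cells are not replicates; batch and group cannot be told apart. In bulk sums of a class, fewer expressing cells and less RNA per cell cannot be told apart, so thinned shares stand beside them. Background counts used genes with at least 20 CPM in 1 library. The interval step was run on simulated independent Poisson counts, the model that it assumes. That run cannot show how the intervals cover UMIs gathered in few cells. The 4 members, the lists and the named-gene rule (all galectins, for each list the 3 members with the largest ratios, 5 most like genes; where 4 list genes were counted, all are named) were chosen with earlier results of these data known. Alternatives were a stricter cell filter, doublets kept, other resolutions, galectins kept in the clustering, other scalings, thinning to 1000 and 2500 UMIs and each microglia-like cluster left out. The free-RNA ratio was computed over 5 myeloid genes in place of the planned list, of which 1 gene is not reported here.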

Additional observations from a re-analysis of the deposited data

How the results depend on the processing

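With 1 library per group the spread between animals is not known, and the intervals cover counting error only. The log2 ratio of Lgals3 in microglia-like cells was 5.51 and ran from 3.32 without the Hmox1-led cluster to 5.91 without the Tmem119-led cluster; it was 5.09 with galectins kept in the clustering. That of Lgals1 was 5.17, and 2.33 without the Hmox1-led cluster and 4.28 without the Tmem119-led one. That of Lgals9 was 0.25 without the Hmox1-led cluster, and that of Lgals8 was 3.08 without the Tmem119-led cluster, from 1 control UMI. With the Spp1- and Mmp12-led part added, after seeing the data, Lgals3 was at 5.79 and Lgals1 at 4.71. In Müller glia-like cells Lgals3 was at -0.75 with doublets kept, -0.69 at resolution 2 and -0.74 with galectins kept in the clustering, settings that named 69 to 72 OIR cells so, against 460. In cone-like cells the stricter filter left 42 control cells, and Lgals1 was at -0.090 and Lgals3 at -0.28 on the floor of 3 UMIs. Genes at least 2-fold higher in microglia-like cells numbered 159 at 50 CPM and 1011 with no minimum, against 321, and lower ones 192 and 623, against 325. At 50 CPM the damaged-lysosome list had 1 lower gene. Shares of microglia-like cells with a UMI moved with the depth they were thinned to. At 1000 and 2500 UMIs that of Lgals3 was 30.6% and 38.5% in OIR and 1.21% and 1.57% in control, that of Lgals1 13.3% and 23.3% in OIR and 0.846% and 0.713% in control, that of Lgals8 2.85% and 5.84% in OIR and 2.66% and 8.56% in control, and that of Lgals9 11.6% and 22.6% in OIR and 11.5% and 25.5% in control. No paired analysis was possible because each group has 1 library. In the other 40 comparisons of the main results, ratios stayed within the reported interval and counts within 1.5 times.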
